A study of Rattus norvegicus with 12 samples.

Results

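The untreated cultures of this study were mixed central nervous system (CNS) glial cell cultures from the brain of newborn rats, and the arrays titled as control were taken as their measurement. They make up 3 of 12 arrays, 1 from each of 3 experiments run on different cultures, and are called control 1, control 2 and control 3. Control cultures were kept in a defined medium that held 2% fetal bovine serum for 6 to 8 days and then received more medium. The treated cultures of the same experiments received cytokines typical of Th1 lymphocytes, of monocytes and macrophages (M/M) or of Th2 lymphocytes for 6 hours, each cytokine at 10 ng/ml, with 3 arrays for each mixture. IL-6 (in M/M) and IL-4 (in Th2) are named in the methods but not in the sample labels of those mixtures. The cells came from a shake-off of adherent brain cultures, with a step, shortened to 1 hour, that removes microglia by adherence to plastic. This preparation limits how far they stand for the whole brain. The rat strain, the sex and the number of animals behind each culture were not given in the sources used here. RNA was hybridized to the Affymetrix RG-U34A array, which measures each transcript with 1 or more probe sets.

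Astrocytes take up glutamate and convert it to glutamine, hold the extracellular potassium down and carry the intermediate filament proteins GFAP and vimentin. Oligodendrocytes arise from precursor cells and wrap axons in myelin, a membrane rich in cholesterol, galactolipids and a few specialised proteins. Microglia are the resident macrophages of the brain, and fibroblasts of the meninges, which make collagen, are a usual companion of glia prepared from newborn brain. In RNA from a whole culture, fewer cells of a type and less RNA per cell cannot be told apart.

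After control probe sets were left out, 8740 probe sets were ranked by signal within each array, and a percentile runs from 0 for the dimmest to 100 for the brightest. Among these, 7006 carry 1 gene symbol, which gives 4736 genes, each represented by its brightest probe set. Probe sets of one transcript bind with unequal strength, and the percentiles of the brightest and dimmest probe set of a gene lay a median of 18.5 points apart, against a median range of 12.5 points over the control arrays for the same probe sets. A percentile therefore ranks probe-set signals and not transcript numbers. The median percentile of all named genes was 56.8, 56.8 and 57.2 in controls 1, 2 and 3. The table holds no call of presence or absence.

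Median signals were 59.1, 38.4 and 26.9 in controls 1, 2 and 3. The values of experiment 3 differ in format from the others, with 1 decimal and 290 values below 1 in control 3, against 1 and 3 such values in controls 1 and 2. A difference of experiment 3 from the others in its cultures and one in its processing cannot be told apart. The ratio of the 3′ to the 5′ probe set of Gapdh, a sign of RNA quality, was 1.23, 1.19 and 1.58 in controls 1, 2 and 3, and lay between 1.39 and 1.54 on the treated arrays of experiment 3. Control 2 stood apart from its own experiment. Its rank correlation across probe sets with the treated arrays of experiment 2 was 0.941 to 0.954, whereas those arrays reached 0.979 to 0.985 with each other and 0.971 to 0.974 with control 1. Results that rest on control 2 are therefore also given without it or from the treated arrays alone.

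The signal of the control cultures was led by glial, ribosomal and cytoskeletal genes. Apoe, which encodes the lipid carrier apolipoprotein E that astrocytes secrete, was the brightest named gene by mean percentile, with signals of 8805, 7205 and 5355 in controls 1, 2 and 3. It ranked among the highest probe sets on each of the control arrays. Tmsb4x, for an actin-binding peptide, had signals of 6146, 6433 and 4895, and the beta actin gene Actb had 5791, 6019 and 3849. Of the 20 brightest genes, 10 encode cytosolic ribosomal proteins, among them Rps29 (6924, 7531 and 5036) and Rpl19 (4973, 5814 and 3912). The others were the gamma actin gene Actg1, the mitochondrial cytochrome oxidase gene COX1, the brain creatine kinase gene Ckb, the G protein gene Gnas, the lysosomal saposin precursor gene Psap, the protease inhibitor gene Cst3 and the metallothionein gene Mt3. Mt3, known from brain, had signals of 4605, 4112 and 3410. The probe set of Actg1 belongs to a class that can match several members of a gene family, and ribosomal protein genes have many processed copies, so their levels may be shared between genes.

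**Figure D1:**
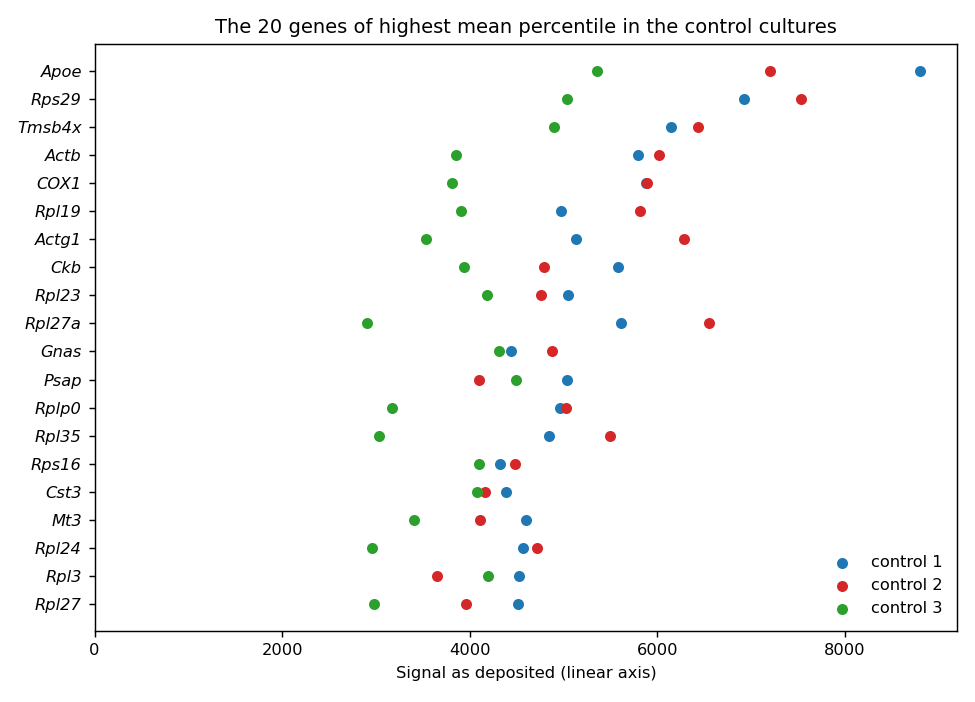
Deposited signal (horizontal, linear axis) of the 20 named genes with the highest mean percentile, 1 point for each control array. Apoe led with 8805 in control 1, and control 3 had the lowest signal for most of these genes, on an array with a median of 26.9.

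Astrocyte markers stood high in each control culture. Of 28 genes listed, 22 have a named probe set, and their median percentile was 95.1, 89.9 and 94.3 in controls 1, 2 and 3. Gfap has no probe set with a gene name in the annotation used, so its level is not given. Vim, which encodes vimentin, had signals of 4516, 2712 and 2970.5, and its percentile averaged 98.9. Glul, for the glutamine synthetase that astrocytes use to detoxify glutamate, had 3453, 3874 and 1246, and the other probe sets of Glul had mean percentiles from 91.6 upward. Fabp7, the brain fatty acid binding protein gene of radial glia and young astrocytes, had 3829, 3253 and 1157. These genes were bright on each control array. Their deposited signals differed by more than 1.5-fold between some of the arrays, whose median signals differ as well. The percentiles of Vim were 99.4, 98.0 and 99.3 in controls 1, 2 and 3. At the lower end of the list were Slc1a2, the glutamate transporter GLT-1 (37.2, 23.7 and 10.6), the neurotrophin receptor gene Ntrk2 (50.6, 42.9 and 23.6) and Aqp4, the water channel of astrocyte endfeet (154, 8.92 and 25.8). Slc1a3, the other astrocytic glutamate transporter, was much brighter with 1310, 652 and 1467, and was named after its values were seen.

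Myelin and oligodendrocyte genes were as bright, with 14 of 28 listed genes named and median percentiles of 92.0, 96.1 and 93.5. Mbp, for myelin basic protein, had signals of 3643, 5558 and 1831. Cnp, for a phosphodiesterase of uncompacted myelin, had 3722, 4005 and 701, and Mag, for the adhesion molecule that faces the axon, had 1625, 2759 and 606. Control 2 was the highest and control 3 the lowest for each of these. Ugt8, which makes galactocerebroside, had 1419, 1510 and 804, the deacetylase gene Sirt2 had 2552, 4319 and 1248, and Gstp1, a glutathione transferase gene, had 4119, 4999 and 1898. Other genes of mature myelin were dimmer: Mog had 281, 327 and 88.4, Mal 151, 98.5 and 68.3, and Car2, carbonic anhydrase of oligodendrocytes, 119, 103 and 74.3. Among the named members of the list, 11 of 14 were in the brightest 25% of probe sets on all 3 control arrays, against 1088 of all 4736 named genes.

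The sequence before the start of the myelin genes was also examined. Whether it had a part in differences between the cultures was not tested. CTTTGT, or ACAAAG on the other strand, is the core bound by SOX proteins, and SOX10 is the member of that family that oligodendrocytes use. Of 33469 rat promoters in RefSeq (build GRCr8), 16.3% held it at least once in the 250 bases before the start. Among 8 myelin genes with an entry, 4 held it. The entry with the most copies is shown beside one with a single copy, with the core in capitals and both genes on the plus strand. Mobp encodes a protein of compact myelin and lies at chr8:128746982-128747231, and Cnp at chr10:86011254-86011503.
Mobp: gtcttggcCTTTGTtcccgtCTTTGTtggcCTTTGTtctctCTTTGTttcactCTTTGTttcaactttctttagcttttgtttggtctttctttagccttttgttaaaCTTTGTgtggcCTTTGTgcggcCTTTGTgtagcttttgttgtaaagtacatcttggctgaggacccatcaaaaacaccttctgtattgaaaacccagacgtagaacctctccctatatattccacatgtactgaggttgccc
Cnp: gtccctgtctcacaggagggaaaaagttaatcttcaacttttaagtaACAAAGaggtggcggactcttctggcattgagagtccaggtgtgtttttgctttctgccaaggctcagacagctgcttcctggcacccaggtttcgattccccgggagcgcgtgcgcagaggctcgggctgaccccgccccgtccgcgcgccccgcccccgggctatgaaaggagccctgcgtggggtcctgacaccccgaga
The Mobp sequence held 8 copies, a number that 2 of all promoters reached, and was chosen for that count. Mbp, Sirt2, Ugt8 and Mal held 0 in this window, and a match in letters is not a bound site. The signals of Mobp were 814, 845 and 392, and those of Sox10, for the factor itself, were 705, 1510 and 213. Both genes were named after their values were seen.

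Genes of microglia and macrophages were bright as well, at median percentiles of 89.0, 83.0 and 83.5 for 22 named genes. The lysosomal protease genes Ctsd and Ctss had signals of 2939, 3124 and 1843 and of 3081, 2577 and 1715. Lyz2, for lysozyme, had 3632, 2354 and 1297, and C1qb, for a chain of the complement component C1q, had 2964, 1754 and 1167. The galectin gene Lgals3 (2841, 2175 and 1864) and Spp1, for osteopontin (3753, 1622 and 1913), were in the same range. Genes of cell surface proteins were spread from high to low. Cd53, a tetraspanin of leukocytes, had 1193, 931 and 561, the endotoxin receptor Cd14 had 773, 365 and 366, and the fractalkine receptor Cx3cr1 of resident microglia had 143, 104 and 36.1, and these were named after their values were seen. At the lower end of the list, the macrophage integrin Itgam had 14.3, 2.81 and 12.2, the growth factor receptor Csf1r had 26.7, 12.8 and 7.9, and Cd74, the chaperone of class II antigen presentation, had 41.1, 5.11 and 4.1. The last 3 genes lay below the median signal on each control array.

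Genes of oligodendrocyte precursors ranked lower, with medians of 56.4, 54.5 and 61 over 14 named genes. The medians of all named genes, 56.8, 56.8 and 57.2 in controls 1, 2 and 3, were close to these. Bcan, for the matrix protein brevican, had 1165, 1874 and 178, Pdgfra, the receptor that keeps precursors dividing, had 557, 434 and 359, and Ptprz1, a receptor phosphatase, had 539, 152 and 422. Cspg5 had 548, 365 and 251. The AMPA receptor genes Gria3 (3.47, 2.33 and 13.1) and Gria4 (18.1, 22.4 and 9.9) were among the lowest of the list. The precursor antigen gene Cspg4, named after its values were seen, had 67.1, 34 and 32.5.

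Fibroblast and meningeal genes varied most between the 3 control cultures, at median percentiles of 75.1, 55.8 and 80.5 over 23 named genes (SD 13.0, against an SD of 2.80 for astrocyte and 2.07 for myelin genes). This rank of the list rested on control 2. In controls 1 and 3 alone its medians lay closer together than those of immediate early genes (58.5 and 70.0). Col1a1 and Col1a2, the chains of collagen I, had signals of 1682, 217 and 833 and of 1052, 191 and 846. Fn1, for fibronectin, had 1541, 214 and 1861. Control 2 was the lowest for each of them. Ptgds, the prostaglandin D synthase of the meninges, had 2455, 475 and 193, Igfbp2 had 1712, 920 and 1474, and Mgp, matrix Gla protein, had 950.3, 684 and 424. 

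Among cells that would be minor or missing in such cultures, endothelial genes had median percentiles of 39.4, 42.3 and 43.6 (14 genes). The adhesion molecule gene Pecam1 had 11.1, 53.2 and 16, which is above the median signal in control 2 and below it in the others, and the VEGF receptor gene Kdr had 6.43, 10.5 and 2.2, below the median on each. The glucose transporter gene Slc2a1, which other cells express too, was the brightest with 767, 207 and 413. Pericyte and smooth muscle genes had medians of 63.6, 58.9 and 63.5 (13 genes), led by the actin-bundling gene Tagln (1454, 911 and 1784) and smooth muscle actin Acta2 (802, 1229 and 319), and Myh11, the smooth muscle myosin gene, had 13.7, 5.15 and 10.6. Schwann cell genes had 78.9, 81.2 and 70.7 (6 genes), led by Pmp22 (872, 446 and 1345) and the neurotrophin receptor Ngfr (1086, 1187 and 193), and Prx, for the peripheral myelin protein periaxin, had 26.9, 28.4 and 44.0. Ependymal and choroid plexus genes had 45.0, 43.1 and 43.2 (6 genes), and those of red blood cells 37.1, 38.0 and 40.5 (4 genes).

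Neuronal genes had median percentiles of 50.7, 48.5 and 47.9 over 41 named genes. The brightest was Mapt, for the microtubule protein tau, which oligodendrocytes also make, with 829, 1851 and 632. Vamp2, for a vesicle protein, had 419, 954 and 189, and Gap43, for a growth cone protein, had 367, 215 and 380. The vesicular glutamate transporter Slc17a7 was near the floor with 1.0, 3.77 and 3.7, and so was the dopamine receptor Drd2 with 1.0, 1.12 and 4.1. The neurofilament gene Nefh, named after its values were seen, had 22.3, 28.5 and 14.0.

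As a measure of background, 56 genes of other organs (liver, pancreas, muscle, pituitary and others) had median percentiles of 29.7, 32.8 and 30.7. The dimmest were Cela1, Tnni2 and Sftpa1, at 2.7 or less on each control array. A cut was set at 57.5, the 90th percentile of the mean percentiles of these 56 genes, so this choice fixed that 6 of them passed. Above it lay 48.2% of all named genes, 14 of 14 myelin genes, 16 of 22 astrocyte genes and 17 of 22 microglial genes. Also above it were 16 of 23 fibroblast genes, 14 of 41 neuronal genes and 3 of 14 endothelial genes. Of the other cell type lists, 8 of 13 pericyte and smooth muscle, 4 of 6 Schwann cell and 7 of 14 precursor genes lay above it. So did 2 of 6 ependymal and choroid plexus genes and 1 of 4 red blood cell genes. Ttr, the transthyretin gene of liver and choroid plexus, is in both the choroid plexus list and that of other organs. It was among the 6 genes of other organs that passed and was bright, at 1663, 1495 and 368. Ins2, the insulin gene, reached 235, 256 and 209 with 1 probe set, while its other probe sets had mean percentiles of 19.1 and 11.8. The probe sets of this gene thus did not give the same rank. In all, 487 of 4736 named genes were in the dimmest 25% of probe sets on all 3 control arrays. Among them were 13 of 56 genes of other organs and 0 genes of the astrocyte, myelin, microglial and fibroblast lists. The 4 of 41 neuronal genes among them were close to the share of all named genes.

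**Figure D2:**
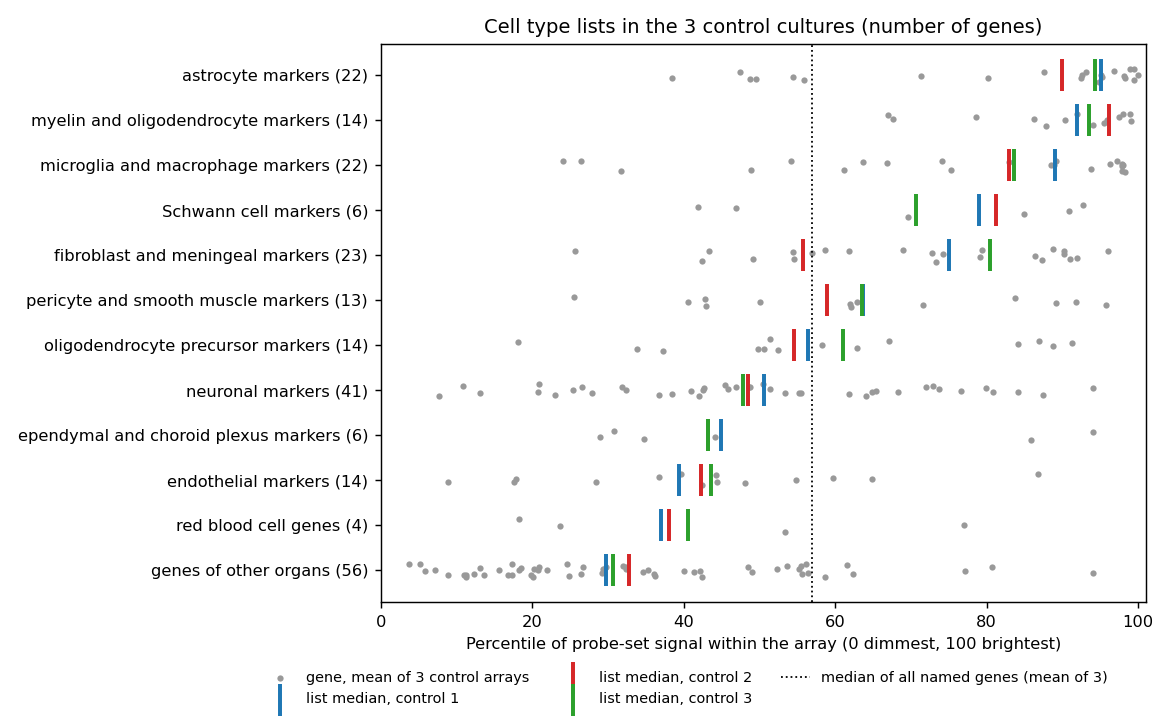
Percentile of probe-set signal within the array (horizontal) for the cell type lists. Grey points are genes (mean of the 3 control arrays), coloured bars are list medians in each control array and the dotted line is the median of all named genes. Astrocyte and myelin medians lie between 89.9 and 96.1, genes of other organs between 29.7 and 32.8, and the fibroblast medians lie farthest apart, from 55.8 in control 2 to 80.5 in control 3.

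Lists of general cell functions had high medians on the 3 control arrays, close to the top of the scale, where percentiles can differ little. Cytosolic ribosomal protein genes had medians of 98.8, 98.7 and 98.7 over 36 genes, although Rpl30 (68.3, 6.21 and 35.5) and Rpl17 (198, 12.5 and 55.0) were dim. Genes of the cytoskeleton had 96.3, 96.0 and 97.5 (16 genes), those of the mitochondrial respiratory chain 94.3, 95.4 and 94.7 (22 genes) and those of glycolysis 93.1, 91.9 and 91.0 (13 genes), with Eno1, for enolase, at 3396, 2184 and 2183. Heat shock and chaperone genes had 91.3, 88.1 and 91.3 (20 genes). The constitutive chaperone Hsp90ab1 had 3456, 3630 and 2998, while the inducible Hspa1a had 47.9, 2.24 and 19.0. The SD of the list median over the control arrays was at most 1.83 percentile points in each of these lists. The test of experiments given below, which is on another scale than these SDs, called 54.4% of all probe sets. It called 22 of 36 ribosomal and 11 of 20 heat shock and chaperone genes, near that share. The shares were larger for cytoskeletal (11 of 16), respiratory chain (17 of 22) and glycolytic genes (12 of 13).

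Lipid synthesis, which myelin formation draws on, was represented by 17 named genes of cholesterol and fatty acid synthesis, with medians of 86.6, 91.9 and 89.0. Scd2, a desaturase, had 3358, 2395 and 1434, and Fdps, for farnesyl diphosphate synthase, had 1820, 3096 and 679. Cell cycle genes had medians of 78.5, 79.0 and 81.6 (19 genes). Cyclin D1, Ccnd1, had 1234, 1988 and 977, and the replication clamp gene Pcna had 1394, 900.3 and 947, whereas the inhibitor gene Cdkn1b had 97.7, 28.2 and 1.2.

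The receptors through which the added cytokines act were mostly of middle rank before any cytokine, with medians of 47.5, 49.0 and 42.7 over 13 named genes. The TNF receptor Tnfrsf1a was the brightest at 307, 234 and 298, followed by Ifngr1, for a chain of the interferon-gamma receptor, at 327, 211 and 40.2 and Il4r at 116, 60.2 and 66.5. Il1r1, the signalling receptor of IL-1, had 17.0, 13.9 and 1.1 with its brightest of 4 probe sets, and Il2ra 9.19, 9.87 and 7.0. Growth factor and neurotrophin genes had medians of 46.4, 47.0 and 54.9 (29 genes). Ptn, for pleiotrophin, had 2735, 1982 and 838, and Igf1 had 1285, 969 and 357, though its other probe sets had mean percentiles down to 48.5. Lif was at 2.99, 2.22 and 9.7. Antigen presentation genes had medians of 62.3, 74.2 and 63.2 (13 genes), with B2m, the light chain of class I molecules, at 1558, 389 and 999. Immediate early genes had 58.5, 52.1 and 70.0 (21 genes), led by Egr1 at 942, 402 and 478, and this list varied more between the controls (SD 9.06) than any other outside the fibroblast list.

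Over all probe sets, controls 1 and 2 had a rank correlation of 0.928, controls 1 and 3 of 0.889 and controls 2 and 3 of 0.831, across 8740 probe sets that share the array design and are not independent replicates. The median gap in percentile was 5.78 points between controls 1 and 2, 7.06 between controls 1 and 3 and 9.4 between controls 2 and 3. Over probe sets of mean percentile 50 or more the rank correlations were lower. They were 0.855 for controls 1 and 2, 0.856 for controls 1 and 3 and 0.713 for controls 2 and 3. By shared membership, the brightest 25% agreed more closely than the dimmest 25%. Of the brightest 100 probe sets of each control array, 63 were shared by all 3, and of the brightest 25% 1654 were shared, which is 75.7% of each. Of the dimmest 25% 1241 were shared, or 56.8% of the largest of the sets. Among genes with a mean percentile of 50 or more, the 10 with the widest range of percentile were lowest in control 3, and this limit on the mean passes genes that are high on the other arrays. Dusp4, a phosphatase that acts on MAP kinases, had 272, 298 and 3.0, the galanin receptor gene Galr3 had 186, 239 and 3.1, and the galanin gene Gal had 327, 188 and 3.2. The integrin gene Itgb4 had 202, 109 and 2.2. Camk2n1, Agxt, Inhbb, Cdc42bpb, Uts2r and Cyp24a1 completed this set.

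With 1 control array in each experiment, a difference between control cultures has no replicate of its own. The treated arrays of an experiment come from cultures of the same preparation, and arrays of one experiment deviated together from their group means, so the experiment was tested over all 12 arrays with the treatment taken out, on log2 signals brought to the same distribution. By limma with Benjamini-Hochberg adjustment, 4753 probe sets (54.4%) differed between experiments, and 4100 (46.9%) when the control arrays were left out. The smallest p values among the genes of upper rank belonged to Rpl41 (3198, 3081 and 645 in controls 1, 2 and 3), Dusp4, Galr3, Septin4, Itgb4, Eid1, Nnat, Gstm1, Slc12a2 and Ngfr. Gstm1, a glutathione transferase gene, had 1180, 325 and 696, and Slc12a2, the sodium, potassium and chloride cotransporter gene, had 1432, 3015 and 473. Most differences involved experiment 3. Experiments 1 and 2, which share the format of their values, differed in 861 probe sets (9.85%), experiments 1 and 3 in 3843 (44.0%) and experiments 2 and 3 in 4588 (52.5%).

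In experiment 1, fibroblast genes were higher than in experiment 2. Of 23 named genes, 16 were higher and 0 lower, against 5.18% of all probe sets higher and 4.67% lower, and their median log2 difference was 1.70 against -0.06 for all named genes. Col1a2 differed by 1.82 on the log2 scale (SE 0.13, adjusted p = 0.000114), Fn1 by 1.80 (SE 0.29, adjusted p = 0.00333), Ptgds by 2.11 (SE 0.22, adjusted p = 0.000397) and Col1a1 by 1.52 (SE 0.25, adjusted p = 0.00434), all from limma. Col1a2 had treated signals from 708 to 828 in experiment 1, from 210 to 263 in experiment 2 and from 638 to 966 in experiment 3, so the arrays of experiment 2 did not overlap the others. Col3a1 and Aldh1a2, named after their values were seen, differed by 2.38 and 2.92. Igfbp2 and Mgp had differences of 0.28 and 0.80 and did not pass. From the treated arrays alone, 15 fibroblast genes were higher and 0 lower (2.86% and 2.51% of all probe sets), and 15 were higher without control 2 (3.63% of all probe sets). Against experiment 3, 16 of the 23 genes were lower in experiment 2 and 2 higher, where 25.6% of all probe sets were lower and 26.9% higher.

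Myelin genes went the other way. Of 14 named genes, 10 were higher in experiment 2 than in experiment 1 and 1 was lower, against 4.67% and 5.18% of all probe sets, and their median log2 difference, experiment 1 minus experiment 2, was -0.68. Mbp differed by -0.94 (SE 0.10, adjusted p = 0.00046), Mag by -0.98 (SE 0.09, adjusted p = 0.000333), Sirt2 by -0.88 (SE 0.09, adjusted p = 0.000447), Sox10 by -1.08 (SE 0.11, adjusted p = 0.000417) and Mobp by -0.67 (SE 0.11, adjusted p = 0.00415), by limma. Mbp signals of treated cultures were 2950 to 3723 in experiment 1, 5984 to 6881 in experiment 2 and 2357 to 3316 in experiment 3. Cnp had a difference of -0.36 and did not pass (adjusted p = 0.0986 by limma), and it passed with the treated arrays alone (-0.41, adjusted p = 0.0462). The 1 lower gene was Cryab, for a small heat shock protein that astrocytes make too, with control signals of 677, 210.1 and 807. The treated arrays alone gave 10 genes higher and 1 lower (2.51% and 2.86% of all probe sets), and 9 were higher without control 2 (2.89% of all probe sets). Against experiment 3, 11 of 14 were higher in experiment 2 and 1 lower, where 26.9% of all probe sets were higher and 25.6% lower, and with arrays centred on their medians 7 were higher and 1 lower (21.6% and 30.8% of all probe sets). Signals left on their deposited scale gave 5 genes higher in experiment 2 than in experiment 1 and 1 lower (0.572% and 4.03% of all probe sets).

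The astrocyte and microglial lists held genes that differed between experiments 1 and 2 beside others that did not pass. Among 22 astrocyte genes, 8 were higher in experiment 1 and 0 lower, against 5.18% and 4.67% of all probe sets, with a median log2 difference of 0.22. Clu, for the secreted chaperone clusterin, had control signals of 2154, 435 and 623 and differed by 1.81 (adjusted p = 5.08e-05, limma). Ndrg2, the calcium-binding protein gene S100b, the matrix protein gene Sparc and the aldolase gene Aldoc differed by 1.80, 1.26, 1.08 and 1.03, and all of these also passed in the treated arrays alone. They were named after their values were seen. Vim differed by 0.60 (SE 0.07, adjusted p = 0.000915 by limma), whereas Glul, Apoe, Mt3 and Cst3 had differences of -0.21, 0.05, 0.16 and 0.07 that did not pass. Aqp4 differed by 1.67 (SE 0.38, adjusted p = 0.0211), and by 1.09 without passing in the treated arrays alone (adjusted p = 0.0611, limma). Among 22 microglial genes, 7 were higher in experiment 1 and 0 lower (median 0.34, with 5.18% and 4.67% of all probe sets), with Spp1 at 0.81 (SE 0.12, adjusted p = 0.00232, limma). This count fell to 3 in the treated arrays alone (2.86% of all probe sets) and 3 without control 2 (3.63%), where Lyz2 and C1qb no longer passed. It was also 3 without rescaling (4.03% of all probe sets), 3 with arrays centred (4.58%), 3 without the variance trend (3.05%) and 2 without control 1 (2.81%). Of the 17 genes of lipid synthesis, 6 were higher in experiment 2 (4.67% of all probe sets), among them Fdps (-0.90, adjusted p = 0.000782, limma), and 1 in the treated arrays alone (2.51% of all probe sets). Whether the levels of fibroblast genes had a part in the differences of other lists was not tested.

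**Figure D3:**
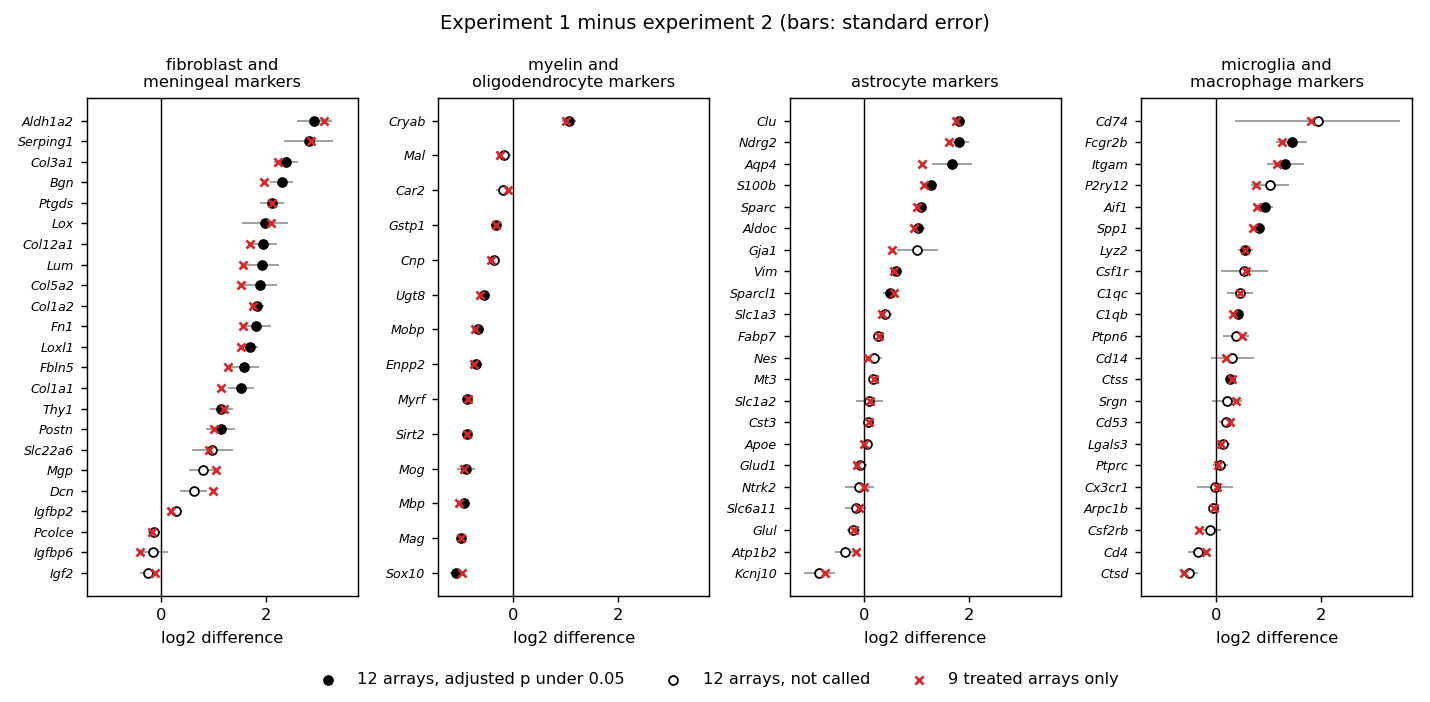
Log2 difference of experiment 1 minus experiment 2 (horizontal) for each gene of 4 lists, from limma over 12 arrays (circles with standard error bars, filled where the adjusted p is under 0.05) and over the 9 treated arrays (crosses). Fibroblast genes lie to the right (median 1.70), myelin genes but Cryab to the left (median -0.68).

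**Figure D4:**
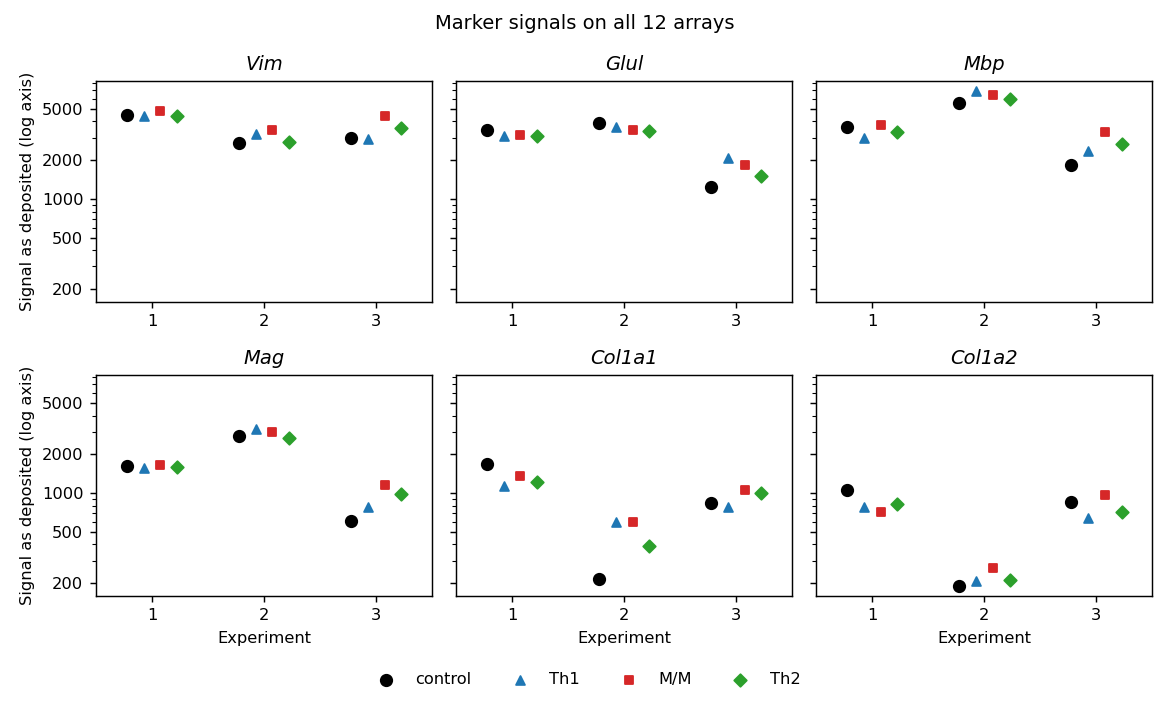
Deposited signal (vertical, log axis) of 6 markers on all 12 arrays, by experiment (horizontal) and treatment (symbols, 1 array each). Col1a2 is lowest and Mbp highest on the arrays of experiment 2, treated or not. Col1a1 of control 2, at 217, lies below the treated arrays of that experiment.

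With cytokines for 6 hours, limma called 0 of 8740 probe sets (0.0%) for Th1, M/M and Th2 mixtures against control, with the experiment as a replicate block, so 0 genes of any list passed, while 643, 1203 and 713 probe sets had an unadjusted p under 0.05. The 3 comparisons share the control arrays. The median log2 difference of astrocyte genes was -0.01, -0.10 and -0.05 for Th1, M/M and Th2 mixtures, that of myelin genes 0.07, -0.22 and 0.00, and that of antigen presentation genes 0.64, 0.78 and 0.06. On the treated arrays the median percentile lay between 89.7 and 95.8 for astrocyte genes, between 91.1 and 95.4 for myelin genes and between 64.8 and 83.3 for fibroblast genes. The number of arrays limits the precision of all of these values.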

How the data were processed

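RNA of 12 cultures was measured on RG-U34A arrays. Probe-set intensity, on a linear scale, was calculated by the authors with dChip and deposited in 1 table of 8799 probe sets; the settings of dChip and any scaling between arrays are not given in the sources used here. Here 59 control probe sets were left out, and 8740 were used. Gene symbols came from the array's annotation, with 7006 probe sets of 1 symbol, 308 of several and 1426 of none, and 6985 of the first kind matched RefSeq. Probe sets with # in their identifier (191) have no symbol there.

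Signals below 0.1 were set to 0.1, log2 values were quantile normalized, and limma (3.58.1, R 4.3.3) fitted treatment and experiment with a variance trend (6 residual degrees of freedom). Benjamini-Hochberg adjustment ran over all 8740 probe sets, and calls had an adjusted p under 0.05. Percentiles and list medians were described without a test. Samples were paired by the prefix that the sample titles of an experiment share. Deviations from group means correlated at 0.444 to 0.698 for arrays of the same experiment (18 pairs) and at 0.343 or less for others. Deviations from a group mean sum to 0, which by itself lowers the correlation between experiments. Cultures were separate for each experiment. The contrasts between pairs of experiments were added after seeing the data. On simulated data with 200 of 8740 probe sets changed, the test of experiments recovered 44, 78, 100 and 100 percent at log2 changes of 1, 2, 3 and 4, 50 probe sets each, with 7 false calls, and M/M against control 44, 62, 92 and 98 percent, with 4. The simulated noise was normal, with the fitted spread, and independent between arrays and probe sets. It held no deviation shared across an array or an experiment, so recovery on the real arrays may be lower.

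Members and lists were chosen with earlier results of these data known. Named genes were the 20 brightest, Mbp, Gfap, Vim and Glul, the 6 highest and 3 lowest of each cell type list, the 3 highest and 2 lowest of other lists, and, at a mean percentile of 50 or more, the 10 with the widest range and the 10 with the smallest p; of these the text gives those that describe a list. Alternatives were other scalings, an offset of 16, no variance trend, testing only the brighter probe sets, no replicate block, other probe sets per gene and arrays left out.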

Additional observations from a re-analysis of the deposited data

How the results depend on the processing

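The p values rest on the spread left among the arrays once treatment and experiment are taken out, and each experiment had 1 preparation of cells, so they do not measure the spread between preparations. The number of probe sets that differ between the experiments was 4753, and 2911 of 4310 when only the brighter ones were tested, 2123 for experiments 1 and 3 and 2665 for 2 and 3. With arrays left out in turn it was 4180 to 4604 (3025 to 4201 and 3889 to 4483 for those pairs). For experiments 1 and 2, an alternative added after seeing the data, the 861 calls (453 higher in experiment 1 and 408 lower) became 402 with signals not rescaled (352 and 50, where the median of all probe sets shifts by 0.10), 463 without the variance trend and 469 in the treated arrays, 585 with arrays centred (400 and 185), and 426 to 1062 with arrays left out. The counts were 473, 530, 484, 570 and 426 without control replicate 1, M/M replicate 1, Th2 replicate 1, control replicate 2 and Th2 replicate 2. The split for experiments 2 and 3 was 2354 higher and 2234 lower, 3896 and 747 without rescaling (median shift 0.65) and 1888 and 2690 with centring, and for 1 and 3 it was 1941 and 1902, 4448 and 463 (median shift 0.80), and 1589 and 2493. For 19 list genes that passed between experiments 1 and 2, these alternatives were followed gene by gene, and 0 reversed. The alternatives reuse all or most of the arrays on which these genes had passed, so a reversal was unlikely from the start. Of the 19, 7 no longer passed without rescaling, and 6 with centring, without the trend or in the treated arrays. The number was 7, 5 and 1 without controls 1, 2 and 3, and 0 with the offset. Sox10, Mobp, Cryab, Col3a1, Aldh1a2, Clu, Ndrg2, S100b, Sparc, Aldoc and Fdps, named above as different, were not among the 19. The causes were not tested.

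With no replicate block 0 probe sets passed for Th1, M/M or Th2 by limma, while 126, 280 and 126 had an unadjusted p under 0.05. The same counts of 0 came with the block, so the pairing changed no call. Without rescaling 23 passed for M/M and 1 for Th2. With arrays or experiments left out, 0 to 96 passed for Th1, 0 to 100 for M/M and 0 to 1 for Th2. For Th1 these were 96 without replicate 3, 76 without Th1 replicate 3, 6 without Th2 replicate 3, 1 without M/M replicate 3 and 1 without Th2 replicate 2. For M/M they were 100 without Th1 replicate 3, 76 without replicate 3, 69 without Th2 replicate 3, 5 without Th2 replicate 2 and 3 without M/M replicate 3, and for Th2 1 without Th2 replicate 2.

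The mean rank correlation of the control arrays was 0.883, 0.808 over the brighter probe sets and 0.831 to 0.928 with a control left out. With all probe sets of a gene averaged, list levels were lower: 75.4 for astrocyte, 87.3 for myelin, 51.7 for precursor, 74.6 for microglial, 36.9 for endothelial, 54.1 for pericyte, 41.7 for neuronal, 66.5 for Schwann cell, 36.6 for red blood cell and 22.6 for other organs' genes. With plain _at probe sets only, they were 85.9 for myelin, 53.8 for precursor, 76.0 for microglial, 44.8 for neuronal, 61.9 for Schwann cell, 53.3 for red blood cell and 25.1 for other organs' genes. With controls left out, list levels ranged from 65.4 to 77.8 for fibroblast genes and moved by less than the spread between arrays elsewhere.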
